A study of Rattus norvegicus with 20 samples.

Results

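Imprinted growth genes were followed in the left ventricle of a failed and a normal heart of Dahl rats, a strain selected for how its blood pressure responds to salt in the diet. The 10 genes listed were Igf2, H19, Dlk1, Mest, Plagl1, Cdkn1c, Grb10, Peg3, Snrpn and Ndn. A probe set was taken when the annotation of the array paired it with exactly 1 gene and that gene was on the list. This gave 14 probe sets of 9 genes, out of 20826 single-gene probe sets and 31099 in all. Igf2 had 4 probe sets, Grb10 had 3 and the others had 1 each. A probe set of Peg3, which encodes a zinc finger protein, was not listed, so Peg3 was not analysed here. A further 2 probe sets shared by Snrpn and the overlapping gene Snurf were left out.

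The failed heart is labelled CHF, the usual short form of congestive heart failure, and a high-sodium diet is named for its mRNA sample only; the other heart is labelled normal and no diet is given for it. An age of 19 weeks is given for every sample but the normal H4ac one. Sex, strain beyond Dahl and the number of animals are not given in the sources used here. A heart below therefore means the arrays labelled failed or those labelled normal, whether from 1 animal or more. Each heart had 10 Affymetrix Rat Genome 230 2.0 arrays: mRNA, genomic DNA before immunoprecipitation (pre-IP), and chromatin immunoprecipitates (ChIP) for H3ac and H4ac (acetylated histones H3 and H4) and for K4me2, K4me3, K9me2, K9me3, K20me3 and K27me2 (di- or trimethylated lysines). There was 1 array per assay and heart, so no value has a replicate error, no test between the hearts was possible, and a difference is one between 2 arrays. The normal H4ac sample has a source label that names pre-IP genomic DNA, while its other labels name acetylated H4. It was used as H4ac, and every normal H4ac enrichment, every H4ac difference and every correlation over the enrichments below rests on it in whole or in part. The arrays carry probes for transcripts, so a ChIP value describes DNA under those probes and not a promoter or an imprinting control region, and parental alleles are not separated.

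Imprinted genes are expressed only or mainly from 1 parental allele in at least some tissues, by DNA methylation and histone marks set in the germ line at control regions. Many of them act on growth: those expressed from the paternal allele, such as Igf2, tend to promote it, and those expressed from the maternal allele, such as H19, Cdkn1c and Grb10, tend to restrain it. As a class they are highly expressed in the fetus and are lowered after birth in most organs, the heart included. At imprinting control regions active marks such as K4 methylation sit on 1 allele and K9 and K20 trimethylation on the other.

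Values are log2 levels on arrays brought to a common median of 100, or 6.64 on this scale, with lower values raised to a floor of 10, or 3.32. Differences are failed minus normal. A difference was counted when it reached 1, which is 2-fold, at a probe set that passed a level filter, meaning that its mean level on the arrays in question was no lower than the median of that mean over all probe sets. The 3′ to 5′ signal ratio of the control probe sets was 22.6 in the failed and 11.3 in the normal heart for GAPDH, 12.4 in the failed and 18.2 in the normal heart for beta-actin, and 0.447 in the failed and 0.148 in the normal heart for hexokinase; the part of RNA integrity in the mRNA differences below was not tested. Per the labels the mRNA is from myocytes of the left ventricle. The 7 myocyte markers measured summed to a linear level of 137363 in the failed and 111652 in the normal heart. They went both ways, with Myh6 at -1.03 and Tnni3 at -0.38, and the others from Pln at 0.29 to Myh7 at 1.61. Markers of other cells were on the same arrays, so fewer cells of a type and less RNA per cell cannot be told apart.

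Most of the imprinted growth genes that stood above the median level had slightly less mRNA in the failed heart, and by less than 2-fold. Of the 14 probe sets 8 passed the level filter on the mRNA arrays, and 6 of these 8 lay below 0, with a median of -0.42. Among all single-gene probe sets that passed, 36.9% lay below 0 and the median was 0.22. Past 2-fold was 1 of the 8, Grb10 probe set 3, against a background of 15% of single-gene probe sets past 2-fold either way and 3.38% past 2-fold lower. As deposited, without rescaling, the failed mRNA array has a median 0.27 lower on the log2 scale than the normal one, and the differences of the 8 shift down by that amount. The signs of 7 of the 8 held under that shift, and Grb10 probe set 1 turned to -0.05.

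**Figure D1:**
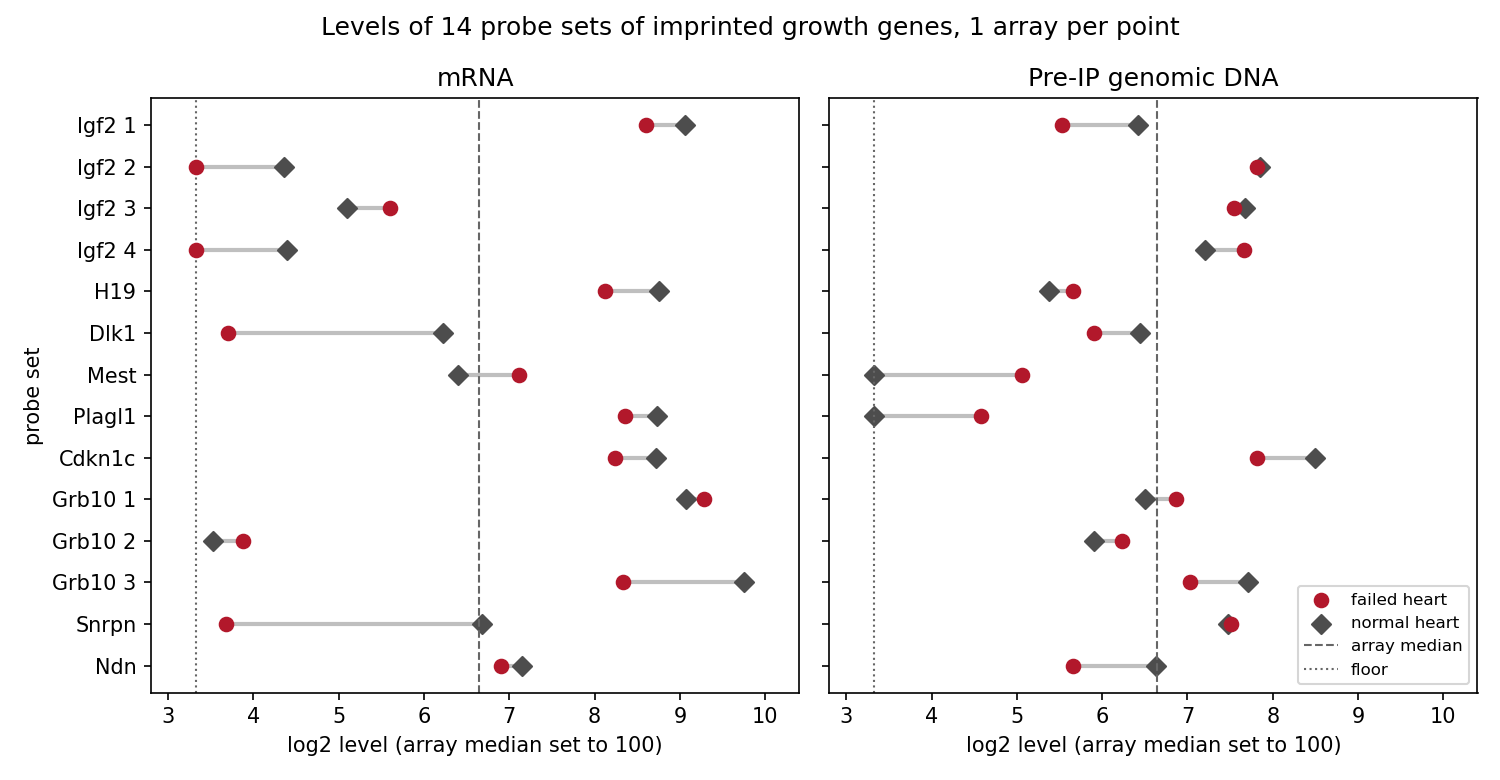
Log2 level of the 14 probe sets (rows) on the mRNA arrays (left) and the pre-IP DNA arrays (right), with circles for the failed and diamonds for the normal heart, 1 array per point. Dlk1 and Snrpn have the widest mRNA gaps and lie near the floor in the failed heart, while Mest and Plagl1 are at the floor in the normal pre-IP DNA.

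Igf2 encodes insulin-like growth factor 2, a fetal growth factor. Igf2 probe set 1 (1367571_a_at) had an mRNA level of 8.60 in the failed and 9.06 in the normal heart, a difference of -0.46. The other 3 probe sets, 2 to 4 in identifier order, were all designed on an accession other than that of probe set 1 and lay below the level filter. Probe set 2 (1371206_a_at) was at the floor in the failed heart and at 4.36 in the normal heart, so the failed heart was lower by at least 2.06-fold. Probe set 4 (1398322_at) was likewise at the floor in the failed heart and at 4.39 in the normal heart, lower by at least 2.10-fold. Probe set 3 (1388252_at) went the other way, with 5.61 in the failed and 5.09 in the normal heart. On pre-IP DNA the 4 probe sets had 5.53, 7.81, 7.54 and 7.67 in the failed heart and 6.42, 7.85, 7.67 and 7.21 in the normal heart. Probe sets 2, 3 and 4 thus gave ample signal with genomic DNA while they were dim with mRNA in both hearts.

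H19 is a non-coding RNA read from the maternal allele. It lies beside Igf2 on chromosome 1 in the RefSeq gene table, where no other gene but the microRNA gene inside it comes between them. H19 (1371298_at) had an mRNA level of 8.12 in the failed and 8.75 in the normal heart, a difference of -0.63. Its neighbour Igf2 at probe set 1 and the next member along the same chromosome, Cdkn1c, were also lower, by less than 2-fold in each case. Between Igf2 and Cdkn1c 13 genes are listed, and a joint change along this stretch was not tested. The H19 and Igf2 transcripts are the hosts of small RNAs, printed here because they are products of these members that expression arrays of this kind do not report. In each mature sequence the seed, bases 2 to 8, is in capitals; the sequences are RefSeq's, on build GRCr8, minus strand, and the 4 seeds all differ.
rno-miR-675-5p in H19, chr1:207161800-207161821: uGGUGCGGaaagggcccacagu
rno-miR-675-3p in H19, chr1:207161766-207161786: uGUAUGCCcuaaccgcucagu
rno-miR-483-5p in Igf2, chr1:207247903-207247924: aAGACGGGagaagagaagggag
rno-miR-483-3p in Igf2, chr1:207247865-207247886: cACUCCUCcccucccgucuugu

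Cdkn1c encodes p57Kip2, an inhibitor of cyclin-dependent kinases. Cdkn1c (1372299_at) had an mRNA level of 8.24 in the failed and 8.72 in the normal heart, a difference of -0.48. Its pre-IP DNA level was lower in the failed heart as well, with 7.82 in the failed and 8.50 in the normal heart. Plagl1, a zinc finger transcription factor that in mouse acts on other imprinted genes, had 8.35 in the failed and 8.74 in the normal heart (1387122_at). Ndn encodes necdin, a protein that restrains cell division in neurons, and had 6.90 in the failed and 7.14 in the normal heart (1371947_at). Mest, an alpha/beta-hydrolase family gene expressed from the paternal allele, was the member with the highest positive difference, 0.71, from 7.11 in the failed and 6.40 in the normal heart (1371731_at).

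Grb10 encodes an adaptor that binds the insulin and insulin-like growth factor receptors and dampens their signal. Its probe sets disagreed. Probe set 3 (1397211_at) had 8.33 in the failed and 9.75 in the normal heart, 2.67-fold lower in the failed heart. Probe set 1 (1371517_at) had 9.28 in the failed and 9.07 in the normal heart. Probe set 2 (1394610_at) had 3.88 in the failed and 3.52 in the normal heart and lay below the level filter. The difference of -1.42 at probe set 3 was thus not seen at either of the others, which gave 0.22 and 0.36. Pre-IP DNA at probe set 3 was also lower, with 7.03 in the failed and 7.72 in the normal heart; the part of the probe set's own signal in the mRNA difference was not tested. When the 3 were averaged, Grb10 differed by -0.28, and no member gene that passed the level filter was then past 2-fold.

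The widest mRNA differences belonged to Dlk1 and Snrpn, and both lay below the level filter. Dlk1 (1369151_at), a transmembrane protein with epidermal growth factor repeats and a non-canonical Notch ligand, had 3.70 in the failed and 6.23 in the normal heart, a difference of -2.52. Snrpn (1388259_at), which encodes the SmN protein of the spliceosome in brain and heart, had 3.68 in the failed and 6.68 in the normal heart, a difference of -3.00. Below the filter 40.1% of single-gene probe sets were past 2-fold either way on these arrays. Of these 9175 probe sets, 327 had a difference as low as that of Dlk1 or lower, and 93 as low as that of Snrpn or lower. With the floor at 50 the differences were -0.58 for Dlk1 and -1.03 for Snrpn. Pre-IP DNA at Snrpn was 7.51 in the failed and 7.47 in the normal heart, so the genomic signal of that probe set was alike in both. Without the level filter 5 of the 14 probe sets differed 2-fold, beside 26.1% of all single-gene probe sets, and all 5 were lower in the failed heart: Igf2 probe sets 2 and 4, Dlk1, Grb10 probe set 3 and Snrpn.

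The start regions of these members differ in their CpG dinucleotides, the sites of the DNA methylation on which imprinting rests. RefSeq gave windows from 250 bases before to 50 after a start for 8 of the 10 genes, with 9 windows in all; H19 and Cdkn1c had none. The Dlk1 window held 45 CpG, a count reached by 1.66% of 33469 windows of 300 bases, and the Grb10 window held 44, reached by 1.89%. Plagl1 had 29, Mest 18, Peg3 16, Ndn 14 and Snrpn 11, against a median of 7 over all windows. Those counts were reached by 11.5%, 27.5%, 30.5%, 33.5% and 39.0% of all windows, in that order. Igf2 had 2 windows, with 19 and 7, reached by 25.7% and 51.4%. The motif GGGGCCCC, which the factor encoded by Plagl1 is known to bind and which reads the same on both strands, was in 1 of the 9 windows, that of Peg3, and in 0.858% of all windows. Shown are both Igf2 starts, since the Igf2 probe sets disagreed, and the Dlk1 and Snrpn starts, the members with the widest mRNA gaps, 5′ to 3′ on build GRCr8 with each CpG in capitals. No array value describes these windows themselves.
Igf2 window 1, chr1:207253931-207254230, minus strand: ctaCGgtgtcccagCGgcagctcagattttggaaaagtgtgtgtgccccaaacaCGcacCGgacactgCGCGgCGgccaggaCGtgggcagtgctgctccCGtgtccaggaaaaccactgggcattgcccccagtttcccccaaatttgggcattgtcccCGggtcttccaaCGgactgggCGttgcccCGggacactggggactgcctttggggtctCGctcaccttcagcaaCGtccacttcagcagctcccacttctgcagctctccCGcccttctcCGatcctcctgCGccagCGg
Igf2 window 2, chr1:207250426-207250725, minus strand: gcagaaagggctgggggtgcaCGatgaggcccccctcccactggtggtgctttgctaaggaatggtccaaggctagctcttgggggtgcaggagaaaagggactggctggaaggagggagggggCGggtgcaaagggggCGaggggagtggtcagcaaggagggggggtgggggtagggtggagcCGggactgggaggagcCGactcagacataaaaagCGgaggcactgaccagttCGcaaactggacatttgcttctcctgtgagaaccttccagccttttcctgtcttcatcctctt
Dlk1, chr6:134192347-134192646, plus strand: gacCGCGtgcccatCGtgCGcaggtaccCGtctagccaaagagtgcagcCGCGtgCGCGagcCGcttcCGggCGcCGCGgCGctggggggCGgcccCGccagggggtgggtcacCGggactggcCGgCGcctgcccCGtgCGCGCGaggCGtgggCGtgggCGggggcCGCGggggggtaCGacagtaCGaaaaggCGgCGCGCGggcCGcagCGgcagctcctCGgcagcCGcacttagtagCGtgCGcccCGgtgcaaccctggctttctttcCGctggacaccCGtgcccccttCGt
Snrpn, chr1:120338870-120339169, minus strand: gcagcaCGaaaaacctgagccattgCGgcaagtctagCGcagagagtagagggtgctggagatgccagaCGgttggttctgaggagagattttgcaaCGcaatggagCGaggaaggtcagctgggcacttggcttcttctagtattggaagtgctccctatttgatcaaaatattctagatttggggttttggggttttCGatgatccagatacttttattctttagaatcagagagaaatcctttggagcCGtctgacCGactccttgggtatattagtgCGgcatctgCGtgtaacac

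Pre-IP DNA, the background of every ChIP value, was examined next. Of 7 member probe sets that passed the level filter on pre-IP DNA 0 differed 2-fold between the hearts, against 7.66% of all. Wider gaps lay below the filter. Mest had 5.06 in the failed heart and Plagl1 4.59, and both were at the floor in the normal heart. Every enrichment of Mest and Plagl1 in the normal heart is therefore a lower bound or, where the ChIP value was at the floor too, has no value. Ndn had a pre-IP level of 5.66 in the failed and 6.64 in the normal heart, and Igf2 probe set 1 had a gap of similar size.

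Within each heart, the enrichment of a mark was taken as the log2 level on its ChIP array less that on the pre-IP array. At the imprinted growth genes K9me3 lay above pre-IP DNA more often than below it and H4ac below it more often than above, on the same side in both hearts. For K9me3 8 of the 14 probe sets lay above 0 in both hearts and 1 below, where 31.3% of all single-gene probe sets lay above in both. The member medians were 0.52 in the failed and 0.62 in the normal heart, beside 0.00 and 0.03 over all. For H4ac 1 lay above 0 in both hearts and 8 below, where 31.7% of all lay below, and the medians were -0.24 in the failed and -0.14 in the normal heart, beside 0.04 and 0.07 over all. No level filter was applied to the counts above and below 0, here or for the other marks. Of the 8 above 0 for K9me3, Igf2 probe set 1, H19, Mest and Grb10 probe set 2 lay below that filter. Of the 8 below 0 for H4ac, Igf2 probe set 1, H19, Dlk1 and Ndn did. K9me3 at H19 was only 0.01 in the normal heart. The 14 probe sets are not independent, since 7 of them belong to Igf2 and Grb10, and all enrichments of a heart share its pre-IP array. The H4ac count rests in part on the array with the doubtful source label; in the failed heart alone 1 of the 14 lay above 0, beside 51.8% of all.

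K9me2 and K20me3 also lay above pre-IP DNA at more of the member probe sets than below it. K9me2 was above 0 in both hearts at 7 probe sets and below at 2, beside 31.4% above over all, with medians of 0.38 in the failed and 0.36 in the normal heart. K20me3 was above 0 in both hearts at 6 and below at 0, beside 28% above. For K4me3 the counts were 6 and 2, beside 26.8%, for K4me2 7 and 4, beside 36.2%, for H3ac 2 and 5, beside 37.3%, and for K27me2 5 and 6, beside 31.2%. Few of these values were large. Of the member probe sets that passed the filter, 1, Igf2 probe set 4 for K4me2, was past 2-fold the same way in both hearts. Its enrichment was 1.32 in the failed and 1.52 in the normal heart, and for K4me2 19.8% of all probe sets were past 2-fold the same way in both hearts. On values as deposited that enrichment was 0.65 in the failed and 1.07 in the normal heart, so it was no longer counted. For the other marks the member count was 0 and the share of all was 11.9% for H3ac, 5.64% for H4ac, 1.38% for K4me3, 14.1% for K9me2, 8.03% for K9me3, 6.38% for K20me3 and 8.97% for K27me2.

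**Figure D2:**
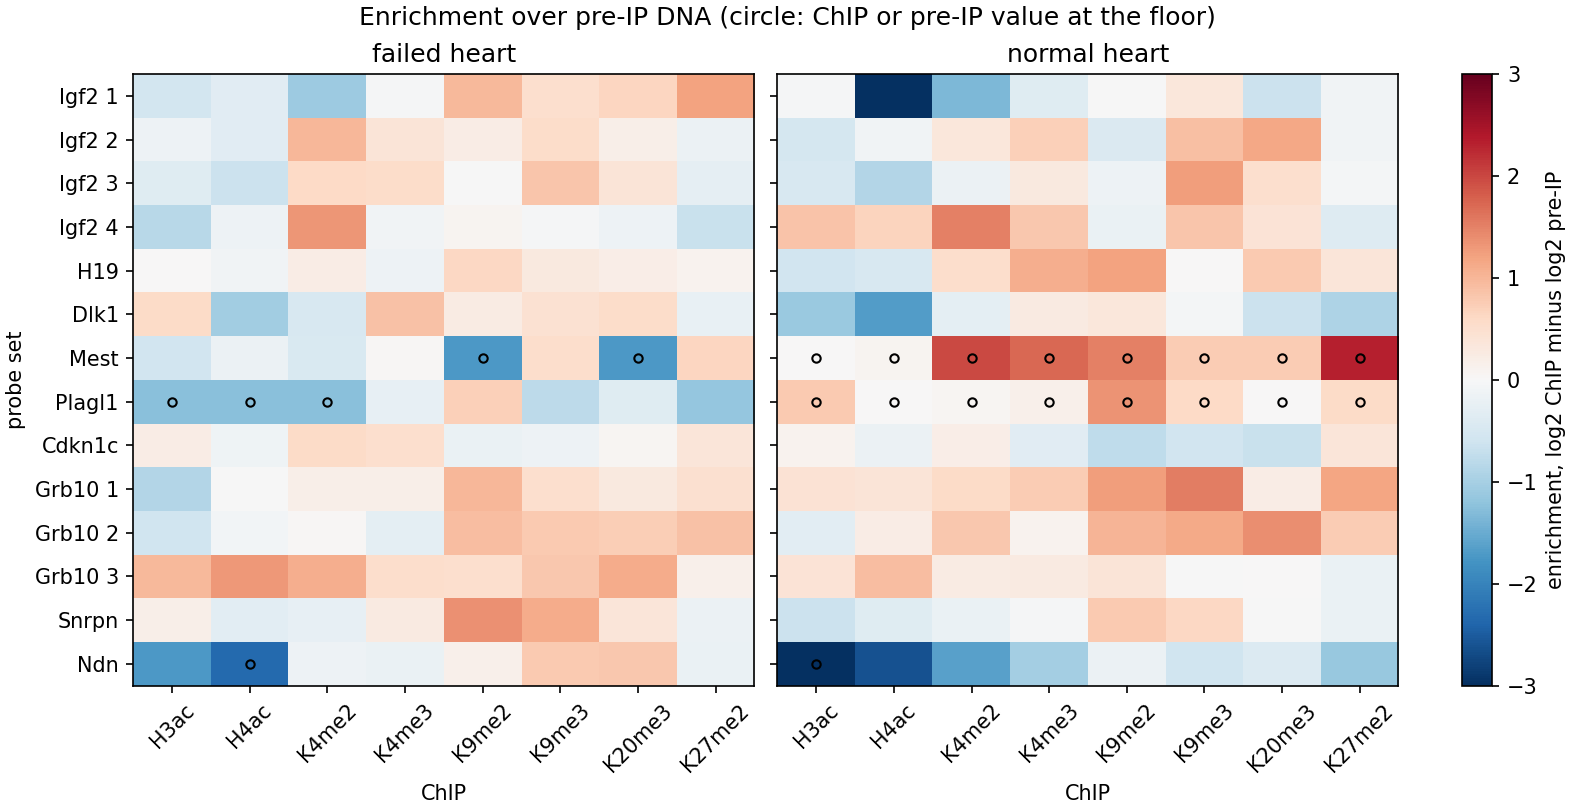
Enrichment (log2 ratio of ChIP to pre-IP, colour) of 8 marks (columns) at the 14 probe sets (rows) in the failed heart (left) and the normal heart (right), with a circle where the ChIP or pre-IP value was at the floor. The K9me3 columns are mostly red and the H4ac columns mostly blue in both hearts, and the Ndn row is blue for acetylation in both.

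K4me3 and K9me3 were read together, since control regions of imprinted genes are known to carry both, on opposite alleles. Both marks lay above 0 in both hearts at 4 of 14 member probe sets, and at 13% of all single-gene probe sets. The 4 were Igf2 probe sets 2 and 3, Grb10 probe set 1 and Mest, whose normal values are lower bounds. Igf2 probe set 3 had K9me3 enrichments of 0.83 in the failed and 1.25 in the normal heart, and K4me3 enrichments of 0.54 in the failed and 0.28 in the normal heart. Grb10 probe set 1 had 0.51 and 1.53 for K9me3 in the failed and the normal heart, and 0.18 and 0.77 for K4me3. Igf2 probe set 2 had 0.54 in the failed and 0.90 in the normal heart for K9me3, and 0.39 and 0.71 for K4me3. H19 missed this set by its K4me3, which was -0.15 in the failed and 1.10 in the normal heart.

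At Ndn acetylation alone was past 2-fold below pre-IP DNA in the failed heart. In the normal heart Ndn lay below pre-IP DNA for all 8 marks, with K4me2 at -1.64, K27me2 at -1.13 and K4me3 at -1.02, and by more for acetylation. It had H3ac enrichments of -1.72 in the failed and at most -3.31 in the normal heart, where the ChIP value was at the floor. Its H4ac enrichments were at most -2.34 in the failed heart and -2.61 in the normal heart. The normal H4ac value is from the array with the doubtful source label. The mRNA of Ndn passed the level filter, but its ChIP values lay below it, so they enter no count of 2-fold values. Snrpn, on the same chromosome but with 40 genes listed between, had H3ac enrichments of 0.17 in the failed and -0.64 in the normal heart. It carried more K9 methylation than pre-IP DNA in both hearts, with K9me2 at 1.37 in the failed and 0.78 in the normal heart and K9me3 at 1.11 in the failed and 0.63 in the normal heart. Cdkn1c stayed close to pre-IP DNA, and in the failed heart its 8 enrichments ran from -0.20 to 0.58; in the normal heart they ran from -0.76 to 0.36.

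Probe sets of the same gene were set side by side over the 16 enrichments, 8 in each heart. Igf2 probe sets 2, 3 and 4 come from the same accession, and Pearson's r was 0.80 between 2 and 3, 0.48 between 2 and 4 and 0.20 between 3 and 4. Igf2 probe set 1 had -0.06 with probe set 2, 0.39 with 3 and -0.48 with 4. For Grb10, probe sets 1 and 2 had 0.65, and probe set 3 had -0.62 with probe set 1 and -0.54 with probe set 2. The 8 values of a heart share its pre-IP array, and pre-IP was lower in the failed heart at Grb10 probe set 3 and higher at 1 and 2. Within a heart that value cancels. Over the 8 marks of each heart alone, probe set 3 had r of -0.46 in the failed and -0.45 in the normal heart with probe set 1, and -0.42 in the failed and -0.53 in the normal heart with probe set 2. Grb10 probe set 3 had H4ac enrichments of 1.30 in the failed and 0.93 in the normal heart, where probe set 1 had -0.01 and 0.38. Conversely K27me2 was 0.15 in the failed and -0.20 in the normal heart at probe set 3, and 0.48 and 1.18 at probe set 1.

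Between the hearts, few enrichment differences at the members passed 2-fold. Over 8 marks, 3 combinations of probe set and mark were counted, among the 6 probe sets that passed the filter for H3ac and the 7 that passed for each other mark. Igf2 probe set 4 had an H3ac difference of -1.68, from -0.83 in the failed and 0.85 in the normal heart. Grb10 probe set 1 had a K9me3 difference of -1.01 and Grb10 probe set 3 a K20me3 difference of 1.08, from 1.11 in the failed and 0.02 in the normal heart. The shares of all single-gene probe sets past 2-fold were 19.5% for H3ac, 11.2% for H4ac, 18.1% for K4me2, 19.1% for K4me3, 25.4% for K9me2, 21.2% for K9me3, 17.3% for K20me3 and 13% for K27me2. With 1 of 6 for H3ac, 1 of 7 for K9me3 and K20me3 each and 0 of 7 for the others, the member counts did not exceed these shares.

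**Figure D3:**
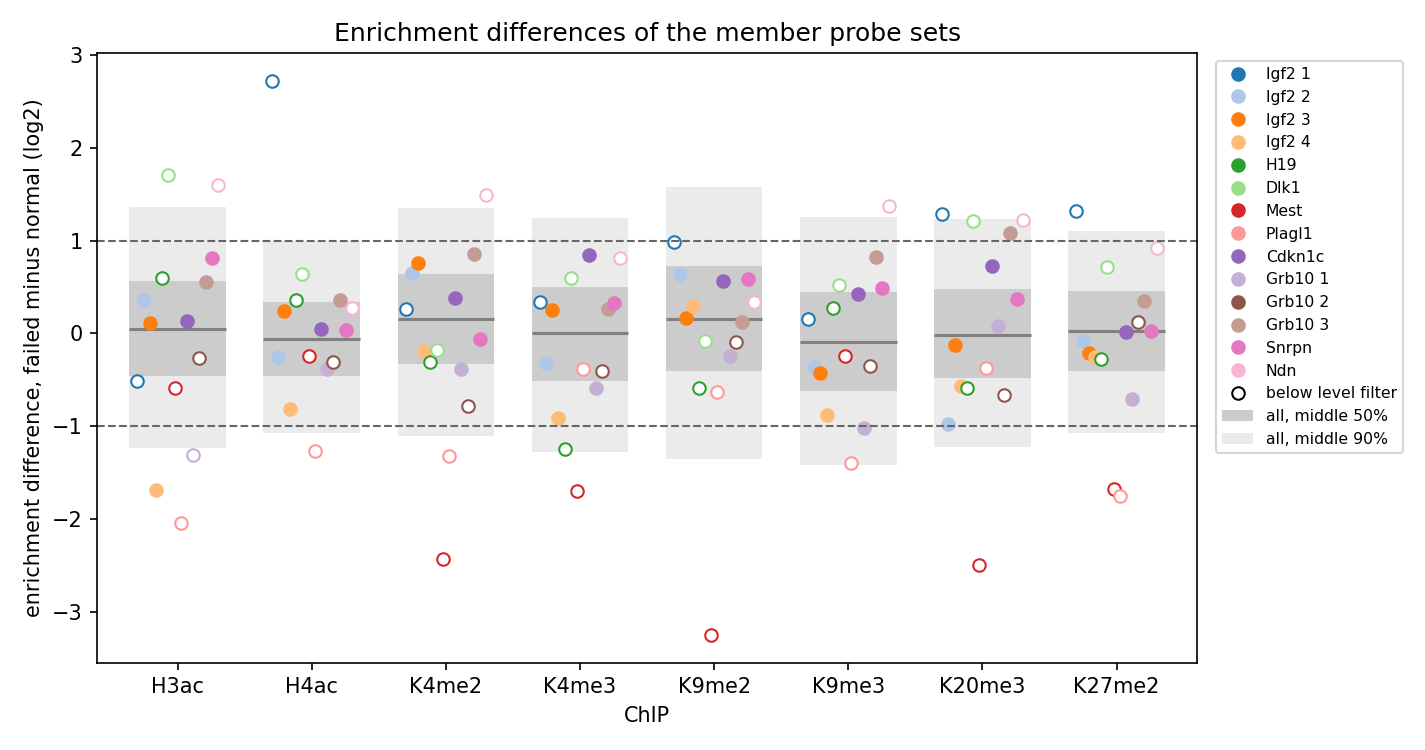
Enrichment difference, failed minus normal (log2), of each member probe set (points) for 8 marks, over the middle 50% and 90% of all single-gene probe sets that passed the level filter (grey). Filled points passed the filter; most open points beyond 1 in size belong to Mest, Plagl1, Ndn, Dlk1 and Igf2 1.

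Below the filter lay larger differences. For Mest and Plagl1 the normal pre-IP value was at the floor, so their differences have no fixed size, and where the normal ChIP value was at the floor too they have none. All 8 lay below 0 in each as computed with the floor, and with quantile normalization or without pre-IP some turned above it. Without subtraction of pre-IP the K4me3 and K27me2 differences of Mest were 0.0417 and 0.0605. Ndn lay above 0 for the 7 marks other than H4ac, from 0.34 for K9me2 to at least 1.60 for H3ac. The H3ac value is a lower bound, since the normal ChIP value was at the floor. Pre-IP DNA of Ndn was lower in the failed heart by 0.98. The K4me3, K9me2 and K27me2 differences of Ndn turned below 0 without subtraction of pre-IP, and its H4ac difference, at most 0.28, has no settled sign. Dlk1 had an H3ac difference of 1.71, from 0.59 in the failed and -1.12 in the normal heart, and a K20me3 difference of 1.22, while its mRNA was lower. H19 had a K4me3 difference of -1.25. Igf2 probe set 1 had the highest positive difference, 2.72 for H4ac, from -0.33 in the failed and -3.05 in the normal heart. The normal value comes from the array with the doubtful source label, where its level was 3.37, close to the floor.

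The genes whose enrichments followed those of a member most closely were named for 6 members, by Pearson's r over the 16 enrichments at the member's probe set that was brightest on the mRNA arrays. For Igf2 these were Cd163, Kdm5b and Col2a1, with r from 0.87 to 0.84. For H19 they were Eef1a1 at 0.88, Iapp and Ttc12, for Dlk1 Vax2 at 0.89, Gata3 and Krt86, and for Mest Ptpn14 at 0.81, Panx1 and Kcnc1. For Cdkn1c they were Cspg5 at 0.91, Thpol1 and Fgf11, and for Snrpn Atf2 at 0.90, Mup5 and Plcb4. The highest of 10665 values is high in any case, and the points share arrays and pre-IP values. For Mest every normal enrichment is a lower bound or has no value, and its failed K9me2 and K20me3 enrichments are upper bounds. The genes named for Mest therefore rest in large part on values at the floor. In these 6 orders only the 7 member probe sets that passed the filter on pre-IP DNA could appear, and the closest was Snrpn to Dlk1, with r of 0.67 at place 241. Among the probe sets of Igf2 that passed the pre-IP filter, the one most like the neighbouring H19 had r of 0.32 at place 1313.

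Imprinted genes that are not among the members were listed for comparison. Of 46 listed, 35 were measured and 22 passed the level filter, with a median difference of 0.19 beside 0.23 for all genes. Of the 22, 0 were 2-fold higher, where 11.8% of genes were, and 2 were 2-fold lower, where 3.14% of genes were. The 2 were Trappc9, a trafficking protein complex subunit, at -1.33, and Dio3, the deiodinase that inactivates thyroid hormone and belongs to the Dlk1 domain, at -1.10. Meg3, the non-coding RNA of the same domain, was at -0.06. Commd1, at 0.93, and Gnas, which encodes the alpha subunit of the stimulatory G protein, at 0.91, were the highest of those that passed, and Igf2r, the receptor that clears Igf2, was at 0.83. For this count each gene was read at its brightest probe set on the mRNA arrays, and 7 member genes passed on that basis, with a median of -0.38 and 5 below 0, where 36.1% of all genes were below 0.

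Genes of the insulin-like growth factor pathway lay near the array as a whole. Of 30 measured, 19 passed, with a median of 0.31 beside 0.23 for all genes. Of the 19, 2 were 2-fold higher, where 11.8% of all genes were, and 0 were 2-fold lower. The 2 were Grb14, an adaptor of the same family as Grb10, at 1.93, and Foxo3, a transcription factor held in check by Akt, at 1.31. Igf1r, the main signalling receptor for Igf2, was at 0.22, and at the other end stood Igfbp4, a binding protein, at -0.18 and Ins1 at -0.32. Igf2bp1, whose protein binds Igf2 mRNA, was at 2.18 but lay below the level filter.

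Over all genes that passed, 11.8% were 2-fold higher and 3.14% 2-fold lower, the shares to set beside the counts of the next lists. Of 16 cyclin-dependent kinase inhibitor and G1 phase genes, all were measured and 11 passed, with a median of 0.08. Of the 11, 1 was 2-fold higher, the cyclin gene Ccnd2 at 2.35, and 0 lower. At the other end stood Rb1, the retinoblastoma gene, at -0.67 and Cdk2 at -0.48. Of 14 Notch pathway genes 10 passed, with a median of 0.05 and 0 past 2-fold, from Notch1 at -0.50 to Rbpj at 0.49. Of 26 genes that maintain imprints or write chromatin marks 21 were measured and 18 passed, with a median of 0.01. Mbd2, a reader of methylated DNA, was at 1.45 and Kmt5c, an enzyme that trimethylates H4 lysine 20, the K20me3 mark, at -1.71. These were the 2 past 2-fold, followed by the related Mbd3 at 0.79 and by Zfp445, a zinc finger protein that protects imprints, at -0.82. Ctcf, which insulates Igf2 from its enhancers at the H19 control region, was at -0.04.

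**Figure D4:**
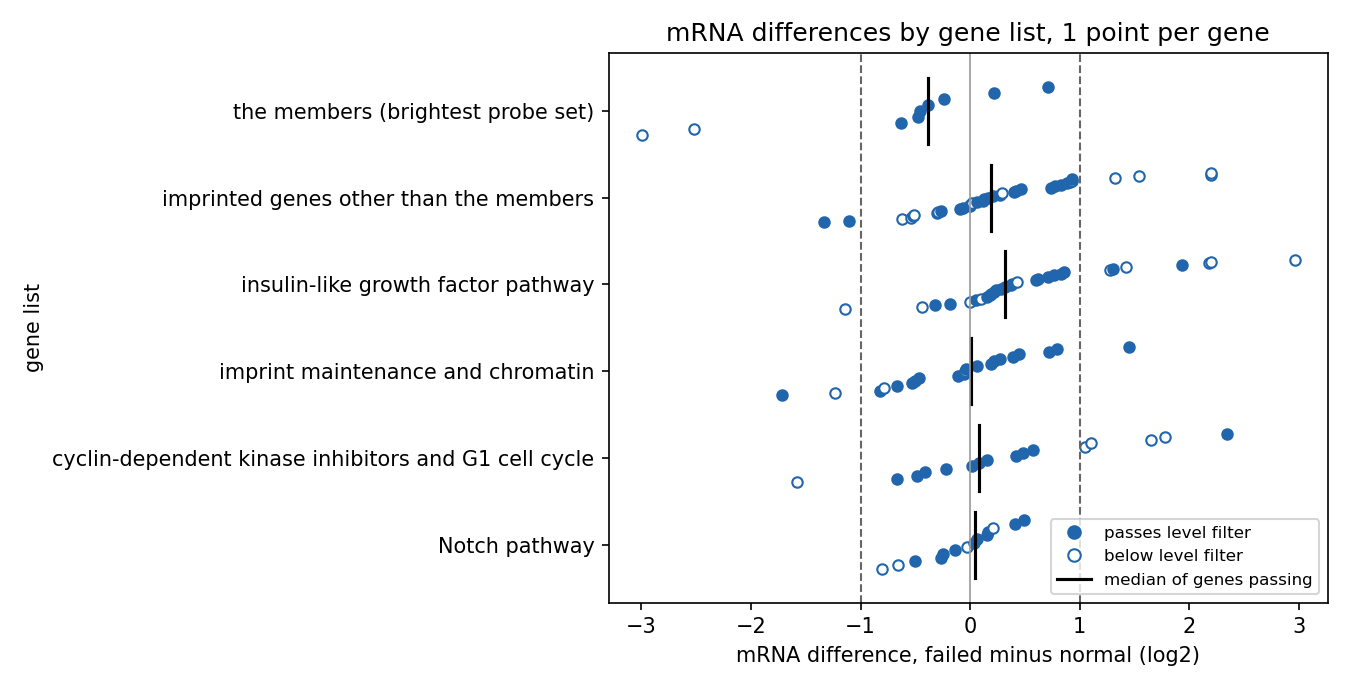
mRNA difference, failed minus normal (log2), of each gene (points) in 6 lists (rows); filled points passed the level filter and the black bar is the median of those. The bar of the members, at -0.38, is the only one left of 0 at this scaling (as deposited only the insulin-like growth factor pathway, at 0.05, stays right of 0), and the open points of Dlk1 and Snrpn lie farthest left.

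Cell type markers differed between the same mRNA arrays, and their part in the member differences was not tested. The counts below stand beside 11.8% of all genes 2-fold higher and 3.14% 2-fold lower. Smooth muscle and pericyte markers, of which 8 of 8 passed, had a median of -1.12 with 5 past 2-fold lower, and summed to a linear level of 4603 in the failed and 7349 in the normal heart. The 5 were Acta2, Tagln, Cnn1, Myh11 and Smtn, while Rgs5 at 0.44, Cspg4 at 0.34 and Pdgfrb at 0.14 went the other way. Fibroblast markers had a median of 0.99 with 4 of 9 past 2-fold higher and summed to 51364.8 in the failed and 20614.5 in the normal heart. Macrophage and leukocyte markers summed to 9746 in the failed and 2354 in the normal heart, with 2 of 6 past 2-fold higher and Itgam at the floor in both. The 2 were Lyz2 at 2.53, the brightest of the list in both hearts, and C1qa at 1.74, while Ptprc was lower, at -0.22. Endothelial markers summed to 12720.5 in the failed and 12594 in the normal heart, but went both ways. Emcn was at -0.72, Tie1 at -0.56 and Kdr at -0.54, while Tek at 0.14, Pecam1 at 0.26, Eng at 0.99 and Vwf at 1.16 were higher. Adipocyte markers summed to 3741 in the failed and 4349 in the normal heart, with Cidec at the floor in both. Schwann cell and neuron markers summed to 659 in the failed and 805 in the normal heart. Sox10 was at -2.38 and Prph at -0.13, while S100b, Uchl1, Dbh and Th ran from 0.36 down to 0.02. The 5 that passed, all but Th, had a median of 0.29. Red blood cell markers summed to 4357 in the failed and 1228 in the normal heart, with 1 of 3 past 2-fold higher, Hbb at 2.13. Alas2 at 0.89 and Slc4a1 at 0.62 were higher by less, while Epb42, below the level filter, was at -2.48.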

How the data were processed

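Left ventricle of a failed and a normal heart was measured on 20 arrays, 1 per assay and heart. The authors deposited 1 linear intensity value for each of 31099 probe sets on each array; 57 are controls. Per the labels, RNA was amplified into biotinylated cDNA, and DNA was fragmented, amplified by T7 transcription and labelled; no tool for summarising or scaling is named in the sources used here. Median intensity lay between 189 and 415.

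Arrays were scaled to a common median of 100 without controls, values under 10 were set to 10, which touched between 2.04% and 11% of an array, and log2 was taken. Gene names came from the platform annotation: 20826 probe sets had 1 gene, 436 had several and 9780 were not listed. Gene identifiers of the 9 members measured matched the current RefSeq table. With 1 array per group there is no p-value; members were described by counts beside all single-gene probe sets. Members and gene lists were chosen with earlier results of these data known. All members are named, and from each other list up to 4 genes at its ends, with Meg3, Igf2r, Igf1r, Igf2bp1 and Ctcf added after their values were seen. Counting was tested on simulated data, which were copies of the normal arrays with known changes put in. The copies hold no noise between arrays, so this checks the counting code and not the counts between the hearts. Python 3.11.15, pandas 2.3.3 and numpy 2.4.6 were used. Alternatives were other scaling, floors, level filter, pre-IP reference and probe set summaries.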

Additional observations from a re-analysis of the deposited data

How the results depend on the processing

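With 1 array per group, no replicate could be left out and no paired analysis was possible. Of 14 mRNA differences under 4 settings (values as deposited, quantile normalization, floors of 50 and 1), 52 of 56 values kept their side of 2-fold and 4 fell inside it, and 0 of those past 2-fold changed sign. The count of 1 member past 2-fold in mRNA was 5 with no level filter and 0 when probe sets were averaged or the brightest was taken. The count for pre-IP DNA was 2 with no filter. Combinations past 2-fold in both hearts were 1, and 1 on values as deposited, though not the same one. The count was 4 with quantile normalization, 2 with the mean pre-IP of both hearts and 23 with no pre-IP subtraction, where probe set brightness enters. Enrichment differences past 2-fold were 3, against 2 on values as deposited, 7 with quantile normalization and 24 with no filter. K4me3 with K9me3 gave 4, against 7 with no pre-IP subtraction. The cause of these moves was not tested. The K9me3 count of 8 ran from 6 to 11 and the H4ac count of 8 from 6 to 9 over 6 settings, both counts chosen after seeing the data. Of 112 enrichment differences 40 turned sign under at least 1 of 6 settings, as did 1 of 14 mRNA differences (Grb10 probe set 1, -0.05 as deposited and with quantile normalization) and 1 of 14 pre-IP differences. Among enrichment differences past 2-fold, 2 turned, both of Mest, with K27me2 at 0.0605 under a floor of 50, and K4me3 at 0.0417 and K27me2 at 0.0605 with mean or no pre-IP. With no pre-IP subtraction the normal heart's H19 enrichments were -0.17 for K4me3 and -0.0662 for K9me2, those of Mest -1.34 for K4me2, -1.60 for K4me3, -1.81 for K9me2 and -0.99 for K27me2, and that of Plagl1 -1.99 for K9me2.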
